A study of Mus musculus with 6 samples.

Results

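The detected solute carriers of mouse uterine luminal epithelium are the genes whose symbol begins with Slc and a digit, with the mitochondrial Slc25a family left out, that had a probe above background on at least 3 of 6 arrays. Above background means a detection p-value under 0.05, which sets a probe's brightness against that of negative control beads. The array carried 287 such symbols, and 136 of them met this rule. The brightest probe that met it stood for each gene. Detection and brightness therefore chose the members, and their levels are given as a description with no test. Of the 136, 102 were above background on all 6 arrays, 19 on 5, 9 on 4 and 6 on 3. The 151 others were above background on 2 arrays (11 symbols), on 1 (25 symbols) or on 0 (115 symbols).

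The study compared total RNA of luminal uterine epithelium taken at 3.5 days post coitum (dpc) from 3 CKO and 3 Control samples on 1 Illumina bead chip. CKO females carried Alk3 flox/flox and Pgr cre/+. Alk3 is Bmpr1a, which encodes a type I receptor of bone morphogenetic proteins (BMPs). The Pgr-cre knock-in makes Cre wherever the progesterone receptor gene is active, which in the uterus includes stroma and muscle as well as epithelium, and it occupies 1 Pgr allele of the CKO mice. The genotype of the Control mice beyond the word Control, and the age of any of the mice, are not stated in the labels. All 6 samples share a hybrid C57BL/6J and 129S5/SvEvBrd background. CKO samples sat at chip positions D, E and F and Control samples at A, B and C, which also name the arrays here, so that position and genotype cannot be told apart. Nothing in the labels ties each array to a separate mouse, and the p-values then measure only the spread between these samples, which may be technical. In RNA from a tissue, fewer cells of a type and less RNA per cell cannot be told apart.

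The median raw signal ran from 79.7 to 82.1 on CKO arrays and from 82.4 to 87.6 on Control arrays, and between 16620 and 17536 of 45281 probes were above background on an array. Array E stood apart most, with a mean correlation over genes of 0.936 with the other arrays, against 0.953 to 0.970 for the rest. All values below are normalised log2 signals of a probe, on which a difference of 1 is a doubling. Differences are CKO minus Control. Bmpr1a itself had 8.86, 8.25 and 8.67 on CKO arrays D, E and F, against 9.26, 9.35 and 8.97 on Control arrays A, B and C, a difference of -0.60 (95% confidence interval -1.12 to -0.07, adjusted p 0.974). The groups did not overlap, and the exact two-sided permutation test gave p = 0.1, the smallest that 3 against 3 arrays allow. Where this probe lies relative to the floxed part of the gene is not known, so that it does not check the deletion. Epithelial markers were read first. Krt8, a keratin of simple epithelium, had 13.38, 13.02 and 13.38 in CKO, against 13.45, 13.21 and 13.53 in Control. The mean level of the 8 measured of 10 listed luminal markers ranged over 10.93 to 11.09 in CKO and 10.68 to 11.12 in Control. The luminal markers Calb1 and Met were not among the genes tested.

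Solute carriers are membrane proteins that move ions, metals, nutrients and metabolites across the plasma membrane or organelle membranes, either downhill or coupled to a sodium or proton gradient. In the uterus, carriers of the luminal epithelium set the ion and nutrient content of the fluid in which the blastocyst floats before it attaches, and the balance between chloride secretion and sodium uptake sets how much of that fluid there is. Families are numbered by sequence, so that members of 1 family usually carry related substrates. Below, members are grouped by the substrate that their family is known to carry.

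Solute carriers were spread over the whole brightness range of the array. Of the 136 members, 1 lay among the brightest 1% of the 12499 genes tested, 5 among the brightest 5%, 7 among the brightest 10%, 27 among the brightest 25% and 57 among the brightest 50%. The median member had a signal of 7.21, against 7.80 for all genes tested. The order given here is that of probe signals, which also depend on each probe's binding and say nothing exact about numbers of transcripts.

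The brightest member was Slc39a4 (ZIP4), the zinc importer of the apical intestinal membrane. Its signal was 14.17, 13.94 and 13.97 on CKO arrays D, E and F, against 14.47, 14.35 and 13.93 on Control arrays A, B and C. The groups overlapped, with a difference of -0.22 (SE 0.20). Its other detected probe differed by -0.66. Slc1a1, the neuronal and epithelial glutamate and aspartate transporter EAAT3, came next at 13.33, 13.40 and 13.37 in CKO, against 13.53, 13.27 and 12.16 in Control. Its Control array C stood more than 1 unit below every other array. Slc6a6, the taurine transporter TauT, had 13.21, 13.16 and 12.96 in CKO, against 13.48, 13.23 and 12.79 in Control. Those groups overlapped closely, with a difference of -0.062 (SE 0.22).

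Slc2a3 (GLUT3), a glucose transporter of high affinity, stood at 13.55, 12.15 and 13.47 in CKO, against 12.54, 12.99 and 12.64 in Control. CKO array E was its lowest array, and the other CKO arrays were its highest. Slc12a2 (NKCC1), the sodium-potassium-chloride cotransporter that loads secretory epithelia with chloride, had 12.70, 13.21 and 12.05 in CKO, against 12.74, 12.20 and 12.56 in Control, and here CKO array E was the highest. Slc35c1, which brings GDP-fucose into the Golgi, was the steadiest of the first 6, at 11.47, 11.70 and 11.69 in CKO, against 11.49, 11.51 and 11.72 in Control. Slc44a2, a choline transporter-like protein, had 11.75, 11.03 and 11.41 in CKO, against 11.49, 11.65 and 11.56 in Control, and Slc38a2 (SNAT2), a sodium-coupled importer of small neutral amino acids, had 11.46, 11.08 and 11.20 in CKO, against 11.03, 10.94 and 10.98 in Control. Slc4a2 (AE2), a chloride-bicarbonate exchanger, had 11.50, 10.54 and 10.83 in CKO, against 11.04, 11.12 and 10.92 in Control. The groups overlapped for Slc44a2 and Slc4a2 and did not for Slc38a2.

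The next 6 places went to Slc39a6, Slc31a1, Slc22a5, Slc35b2, Slc15a2 and Slc2a1. Slc39a6 (ZIP6), a zinc importer, had 10.63, 11.74 and 10.88 in CKO, against 10.97, 10.65 and 10.90 in Control. Slc31a1 (CTR1), the main copper importer, had 11.29, 11.12 and 10.97 in CKO, against 10.27, 10.73 and 11.09 in Control. Slc35b2, which carries the sulphate donor PAPS into the Golgi, had 10.76, 10.67 and 10.59 in CKO, against 10.82, 10.88 and 10.99 in Control. Slc2a1 (GLUT1), the widespread basal glucose transporter, had 10.61, 10.69 and 10.50 in CKO, against 10.26, 10.64 and 10.88 in Control, with a difference of 0.0069 (SE 0.21). The Control range of Slc2a1 contained the CKO range, while all CKO arrays of Slc35b2 lay below all Control arrays. The lowest array of Slc39a4 lay above the highest of Slc1a1, and the lowest of Slc12a2 above the highest of Slc35c1. All other neighbours among the brightest 15 had ranges over 6 arrays that overlapped.

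**Figure D1:**
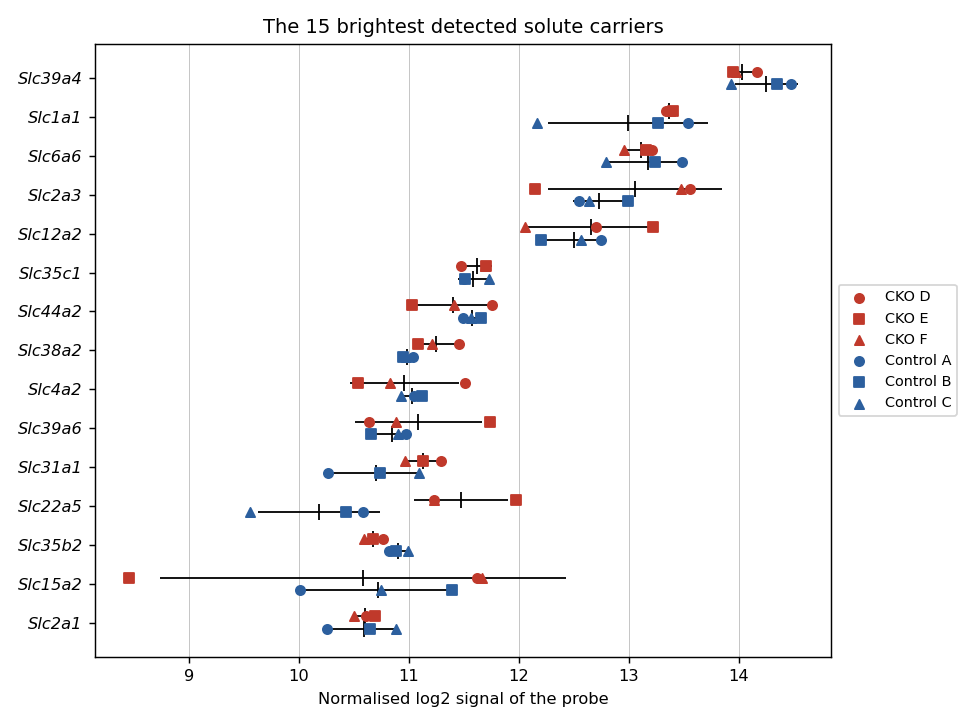
Normalised log2 signal of the 15 brightest detected solute carriers, 1 row each, with CKO arrays D, E and F in red above Control arrays A, B and C in blue, a tick at each group mean and a line for its SD (n = 3 each). The red and blue points overlap for most members, Slc22a5 lies further right in CKO, and CKO array E stands far left for Slc15a2.

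No detected solute carrier passed the adjusted p of 0.05 between CKO and Control in limma's fit across all genes. That is 0 of 136 members higher in CKO, where 0.016% of all genes were called, and 0 lower, where 0% were. Before adjustment, 9 members (6.62%) had a p under 0.05, where 4.87% of all genes did, and with arrays weighted by quality 23 (16.9%) did, where 12.7% of all genes did, and 0 passed. CKO arrays all lay above Control arrays for 10 members (7.35%, where 5.81% of all genes did so) and all below for 6 (4.41%, where 5.02% did). These shares are near those of all genes. Without array E, 30 members (22.1%) had groups that did not overlap in either direction, where 19.8% of all genes did, against 16 (11.8%, where 10.8% did) on 6 arrays, and 0 passed. A positive difference was found for 75 members and a negative one for 61, a share of 55.1% against 48.5% over all genes, and the median difference was 0.038 for members and -0.01 for all genes. 

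Slc22a5 (OCTN2), the high-affinity carnitine transporter that supplies cells for the mitochondrial burning of long-chain fatty acids, had the smallest unadjusted p of the set. Its signal was 11.22, 11.97 and 11.23 on CKO arrays D, E and F, against 10.58, 10.43 and 9.55 on Control arrays A, B and C, or 11.47 ± 0.43 in CKO and 10.18 ± 0.55 in Control (SD, n = 3 each). CKO array E was the highest and Control array C the lowest. The mean of the glandular markers given below had the same order but rests in part on signals below background. The part of these markers in this difference was not tested. All CKO arrays lay above all Control arrays, by 1.29 (SE 0.35, 95% confidence interval 0.46 to 2.11, unadjusted p 0.00809, adjusted p 0.974). With 1 array left out at a time the difference ran from 0.97 to 1.48. A further pair of Slc22a5 probes gave 1.67, again with no overlap, and 0.96, where CKO array D (6.84) lay below Control array A (7.54).

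The 250 bases before the RefSeq start of Slc22a5 are shown because this member had the smallest p of the set. Capitals mark matches, on either strand, to AGGTCA (a core site of estrogen and other nuclear receptors), AGAACA (a core site of the progesterone and glucocorticoid receptors) or GGCGCC (a GC-rich element bound by SMAD1 and SMAD5, the messengers of BMP receptors). Sequences are from RefSeq, build GRCm38.p6, read 5′ to 3′ in the direction of the gene.
Slc22a5, chr11:53891704-53891953, minus strand: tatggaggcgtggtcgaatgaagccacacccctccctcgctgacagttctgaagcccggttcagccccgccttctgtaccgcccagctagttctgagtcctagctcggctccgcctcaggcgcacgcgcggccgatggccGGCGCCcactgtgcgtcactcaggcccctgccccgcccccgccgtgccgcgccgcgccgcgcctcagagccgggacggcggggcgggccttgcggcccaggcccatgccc
The match is GGCGCC, whose first base lies at -110 from the start. GGCGCC occurred in 9.59% of 32851 annotated mouse promoters of this length and in 11.6% of the 146 promoters of 110 members that the RefSeq table holds. A match of letters is a description, not a binding site.

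The most negative difference was that of Slc6a9 (GLYT1), the sodium- and chloride-coupled glycine transporter, which early mouse embryos also use to regulate their volume. Its arrays had 6.81, 5.72 and 5.55 in CKO, against 6.86, 7.34 and 7.71 in Control, a difference of -1.27 (SE 0.39, unadjusted p 0.0145, adjusted p 0.974), with a 95% confidence interval of -2.20 to -0.35. CKO lay below Control throughout, but CKO array D and Control array A were nearly the same. With arrays weighted by their quality its adjusted p was 0.147, the smallest that any member reached under any alternative. Slc5a6, the sodium-dependent multivitamin transporter for biotin and pantothenate, had 8.16, 7.81 and 8.02 in CKO, against 8.59, 8.42 and 8.67 in Control, a difference of -0.56 (SE 0.18, unadjusted p 0.0164, adjusted p 0.974). Slc12a7 (KCC4), a potassium-chloride cotransporter, had 7.30, 6.84 and 7.18 in CKO, against 6.59, 6.44 and 5.81 in Control, a difference of 0.82 (SE 0.26, unadjusted p 0.0163, adjusted p 0.974). The last lay above Control on every CKO array and the multivitamin transporter below.

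Among amino acid carriers, Slc7a7, the y+LAT1 light chain of a basolateral exporter of cationic amino acids, had 7.27, 7.85 and 7.47 in CKO, against 7.05, 7.01 and 6.94 in Control, a difference of 0.53 (SE 0.20, unadjusted p 0.0338, adjusted p 0.974). Another detected probe of Slc7a7 gave 0.069. The difference of Slc38a2 was 0.27 (SE 0.17) on its brightest probe with no overlap, and -0.42 and -0.026 on further detected probes. Slc27a3, a fatty acid transport protein with acyl-CoA synthetase activity, had 7.63, 6.74 and 7.04 in CKO, against 7.71, 7.88 and 7.80 in Control, a difference of -0.66 (SE 0.25, unadjusted p 0.0368, adjusted p 0.974). Slc22a17, the receptor-like carrier of the siderophore-binding protein lipocalin-2, had 5.97, 5.64 and 5.87 in CKO, against 6.18, 6.25 and 6.38 in Control, a difference of -0.44 (SE 0.17). Both Slc27a3 and Slc22a17 were lower in CKO on every array.

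The groups did not overlap for 8 further members. Slc4a7 (NBCn1), a sodium-bicarbonate cotransporter, differed by 0.66 (SE 0.28), and Slc35e3, an orphan relative of nucleotide sugar carriers, by 0.51 (SE 0.21). Slc11a2 (DMT1), the importer of ferrous iron, differed by 0.39 (SE 0.19), and its other detected probe by 0.77. Slc4a1ap, a nuclear adaptor protein that is named for the anion exchanger it binds and carries nothing itself, differed by 0.37 (SE 0.17). Slc10a3, an orphan relative of bile acid carriers, differed by 0.23 (SE 0.17), and Slc35a4 by 0.27 (SE 0.18). Slc35a4 was named after its values were seen. Lower in CKO were Slc35b2, with a difference of -0.22 (SE 0.16) and Slc12a9, with one of -0.19 (SE 0.16), whose other probe gave 0.29.

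**Figure D2:**
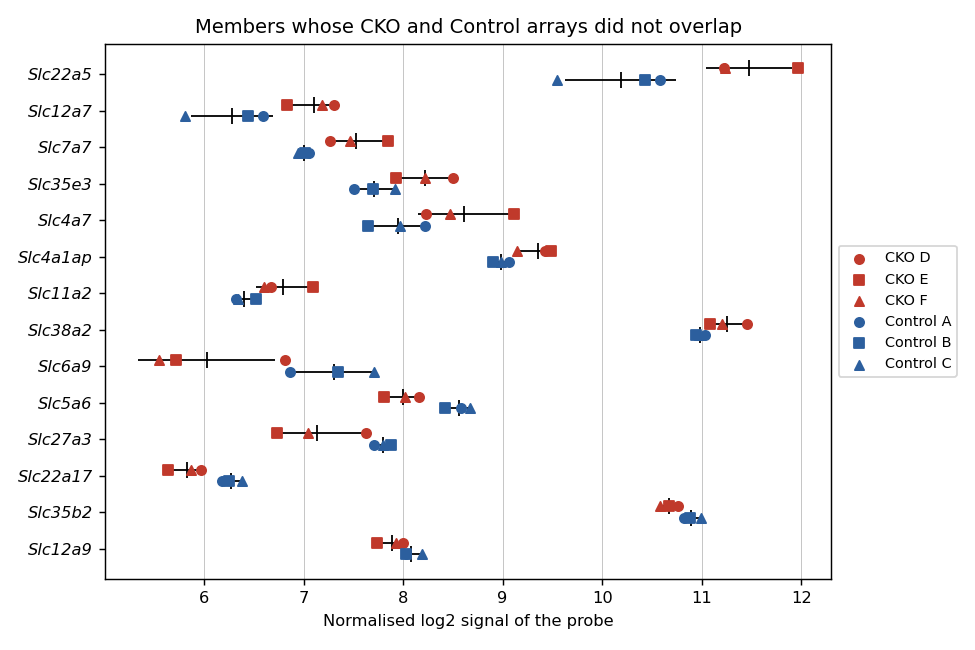
Normalised log2 signal of 14 of the 16 members whose CKO arrays (red, D, E and F) did not overlap with the Control arrays (blue, A, B and C), CKO above Control in each row, ordered with those higher in CKO first, with a tick at each group mean and a line for its SD (n = 3 each). The gap between the groups is widest for Slc22a5 and narrow for Slc35e3, Slc4a7, Slc38a2, Slc6a9, Slc35b2 and Slc12a9, whose nearest arrays almost touch.

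**Figure D3:**
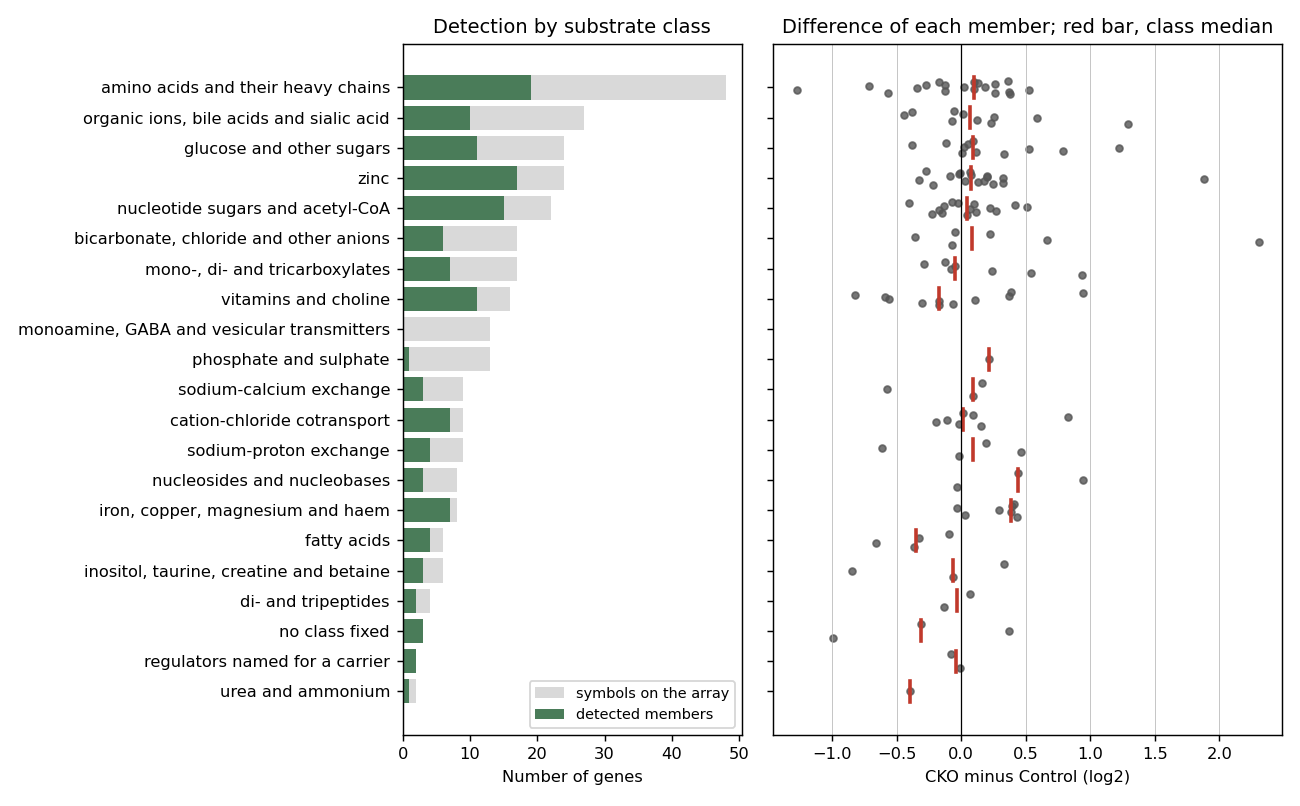
Left, number of solute carrier symbols on the array (grey) and of detected members (green) in each substrate class. Right, difference of each member (CKO minus Control, log2), 1 point each, with the class median as a red bar. Points of most classes lie on both sides of 0, and all 4 fatty acid carriers lie below it, as do 61 of all 136 members.

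By substrate, most classes held members on both sides of 0. All 4 detected fatty acid transport proteins had a negative difference, with a median of -0.35 and a range of -0.66 to -0.092. A negative difference was also found for 61 of all 136 members and 6443 of the 12499 genes tested, and the class was not tested as a set. Fatty acid transport proteins take up long-chain fatty acids and join them to coenzyme A. Slc27a2 had 7.38, 7.87 and 7.46 in CKO, against 8.13, 7.75 and 7.93 in Control, and Slc27a1 had 7.35, 6.97 and 7.15 in CKO, against 7.53, 7.32 and 7.60 in Control. In both, 1 CKO array lay above the lowest Control array. Slc27a4, the fatty acid transporter of the intestine and skin, had 5.80, 6.29 and 5.92 in CKO, against 6.07, 6.26 and 5.96 in Control, with a difference of -0.092 (SE 0.20). Its groups overlapped, and the sign turned when CKO array D was left out (0.0095). None of the 4 passed the adjusted p, and the class had 4 of the 6 symbols on the array.

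Among carriers of iron, copper, magnesium and haem, 6 of 7 members had a positive difference, where 75 of all 136 members did. The class median was 0.38, and 0 of 7 passed. The median was 0.22 without CKO array F. Slc31a1 differed by 0.43 (SE 0.25), and Slc41a3, a magnesium carrier, by 0.38 (SE 0.33). Slc40a1 (ferroportin), the iron exporter, had 11.31, 8.93 and 11.47 in CKO, against 10.39, 11.26 and 9.96 in Control. CKO array E was its lowest and the other CKO arrays its highest, so that the group difference was 0.033 (SE 0.72) and ran from -0.42 to 0.85 as 1 array was left out.

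Zinc carriers were detected for 17 of 24 symbols, 11 of them with a positive difference and 6 with a negative one (median 0.08). ZIP (Slc39) proteins bring zinc into the cytoplasm and ZnT (Slc30) proteins take it out or into vesicles. Slc30a5 (ZnT5), which loads the secretory pathway, had 10.20, 11.69 and 10.21 in CKO, against 10.68, 10.31 and 10.12 in Control, and Slc30a1 (ZnT1), the plasma membrane exporter, had 6.39, 7.55 and 6.86 in CKO, against 6.73, 6.66 and 6.43 in Control. CKO array E was the highest array for both. Slc39a14 (ZIP14), which also imports iron, had 5.88, 5.0 and 6.89 in CKO, against 5.75, 5.67 and 6.37 in Control. CKO array E was the lowest and below background, so that the difference of -0.0097 (SE 0.48) rests in part on a bound.

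Amino acid carriers were the largest class on the array, with 19 of 48 symbols detected, where 136 of 287 were over all solute carrier symbols. Of the 19, 11 had a positive difference and 8 a negative one (median 0.10, -0.016 without Control array C). Slc3a2 (CD98hc), the heavy chain that brings several light chains to the membrane, was dim at 5.26, 5.71 and 5.23 in CKO, against 5.38, 5.48 and 5.74 in Control. Slc1a5 (ASCT2), the exchanger of glutamine and small neutral amino acids, had 4.61, 7.02 and 5.52 in CKO, against 4.80, 5.81 and 5.98 in Control. It was highest on CKO array E and lowest on CKO array D, and both groups had 2 of 3 arrays above background. Slc7a4, an orphan relative of cationic amino acid carriers, had 9.19, 7.51 and 8.83 in CKO, against 8.50, 8.89 and 9.83 in Control, lowest on CKO array E. Of carriers with known uterine or epithelial roles on a chosen list, Slc7a1 was above background on 1 array, and Slc6a14, Slc16a1 and Slc34a2 on 0.

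Glucose and other sugar carriers were detected for 11 of 24 symbols, 9 with a positive difference and 2 with a negative one (median 0.094). Slc2a6 (GLUT6), a lysosomal hexose carrier, had 9.32, 7.99 and 8.91 in CKO, against 8.30, 9.21 and 8.35 in Control. Its groups overlapped fully. Vitamin and choline carriers had 4 positive and 7 negative differences among 11 members of 16 symbols (median -0.17, 0.0084 without Control array A). Slc44a1, a choline transporter of plasma and mitochondrial membranes, had 6.54, 5.25 and 5.77 in CKO, against 6.58, 6.37 and 7.07 in Control, a difference of -0.82 (SE 0.36). Its other detected probe differed by -0.30. Slc44a4, a choline and thiamine pyrophosphate carrier, had 9.90, 9.98 and 10.13 in CKO, against 10.42, 10.12 and 9.64 in Control, and Slc44a3 had 9.11, 8.54 and 8.72 in CKO, against 9.18, 9.30 and 8.80 in Control. All 3 overlapped between the groups.

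Carriers of nucleotide sugars, which feed glycosylation in the Golgi and endoplasmic reticulum, were detected for 15 of 22 symbols and varied little. The median SD over 6 arrays was 0.215 in this class, 0.349 over all members and 0.305 over all genes tested. Differences were positive for 8 and negative for 7 (median 0.043). Slc35b1, which brings ATP into the endoplasmic reticulum of human cells, had 10.67, 10.39 and 10.35 in CKO, against 10.38, 10.77 and 10.70 in Control. Its groups overlapped. Carriers of organic ions, bile acids and sialic acid were detected for 10 of 27 symbols, 6 with a positive difference and 4 with a negative one (median 0.072). Besides Slc22a5, the class held Slc22a18, a carrier encoded in an imprinted region, at 9.29, 8.74 and 9.05 in CKO, against 8.77, 9.10 and 9.41 in Control.

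Cation-chloride cotransporters were detected for 7 of 9 symbols, 4 with a positive difference and 3 with a negative one (median 0.016, -0.12 without CKO array E). Of these, 1 lay higher in CKO on all arrays and 1 lower with no overlap, where 10.8% of all genes had groups that did not overlap. Slc12a3, the thiazide-sensitive sodium-chloride cotransporter known from the kidney, was bright at 10.66, 10.24 and 10.67 in CKO, against 10.74, 10.55 and 10.33 in Control. Its 6 arrays lay close together on this probe, with a difference of -0.020, while its other detected probe differed by 0.57. Only 2 of the 5 Slc12a3 probes on the array met the detection rule. Sodium-proton exchangers were detected for 4 of 9 symbols (median 0.089). Slc9a8, an exchanger of the Golgi, had 8.79, 7.86 and 7.78 in CKO, against 7.82, 7.67 and 7.56 in Control. Slc9a2 (NHE2), an apical exchanger of epithelia, had 7.07, 5.91 and 6.70 in CKO, against 7.39, 7.19 and 6.92 in Control, a difference of -0.61 (SE 0.32). CKO array D lay above 1 Control array for Slc9a2, so that the groups overlapped. Another detected probe of Slc9a2 differed by -0.020, and further probes of Slc9a8 by 0.0013 and 0.41, against 0.46 on its brightest.

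Slc9a3r1 (NHERF1), an apical scaffold named for the exchanger it holds, had 10.59, 10.07 and 10.34 in CKO, against 10.16, 10.55 and 10.33 in Control, and its relative Slc9a3r2 had 10.53, 9.32 and 10.38 in CKO, against 10.10, 10.58 and 9.77 in Control. Neither separated the groups. Among anion exchangers, Slc26a4 (pendrin), which swaps chloride for bicarbonate or iodide, was near background at 4.82, 5.84 and 5.0 in CKO, against 5.56, 5.24 and 5.02 in Control. The sodium-calcium exchangers detected were Slc24a6 (now Slc8b1, of mitochondria), Slc24a4 and Slc8a1. Slc24a4 had 7.21, 4.71 and 7.07 in CKO, against 6.51, 6.07 and 8.14 in Control. It was more than 2-fold lower on CKO array E than on any other array, but E was below background, where a signal is only a bound. Slc8a1 had 5.95, 7.71 and 5.57 in CKO, against 6.82, 5.77 and 6.14 in Control and was highest on CKO array E. Slc24a6 had 8.04, 8.47 and 7.69 in CKO, against 8.20, 7.92 and 7.80 in Control.

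Further classes were small. Of 13 phosphate and sulphate carriers only Slc20a1, a sodium-phosphate cotransporter that also serves as a retrovirus receptor, was detected, at 5.15, 5.46 and 5.60 in CKO, against 4.78, 5.13 and 5.66 in Control. Of 13 symbols for carriers of monoamines, GABA and vesicular transmitters, 0 were detected. Slc5a11, a sodium-coupled inositol transporter, had 9.90, 8.78 and 9.10 in CKO, against 10.31, 9.79 and 10.21 in Control, a difference of -0.85 (SE 0.32, unadjusted p 0.0348, adjusted p 0.974). Control array B lay below CKO array D, so that the groups overlapped. Slc6a8, the creatine transporter, had 8.34, 7.51 and 8.06 in CKO, against 7.77, 8.24 and 6.91 in Control, and the urea transporter Slc14a1 had 5.61, 4.60 and 5.34 in CKO, against 5.53, 4.90 and 6.30 in Control. Both overlapped.

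Nucleoside carriers were detected for 3 of 8 symbols. Slc29a3, an equilibrative carrier of lysosomes and mitochondria, had 9.97, 8.99 and 9.85 in CKO, against 9.52, 9.63 and 9.76 in Control, and Slc29a1 (ENT1), its relative of the plasma membrane, had 5.24, 6.24 and 4.92 in CKO, against 5.14, 5.15 and 4.80 in Control, highest on CKO array E. The mono-, di- and tricarboxylate carriers had 7 of 17 symbols detected (median difference -0.05, 0.27 without CKO array F). Slc16a13 had 6.87, 7.92 and 7.02 in CKO, against 7.46, 6.47 and 6.25 in Control, and Slc5a8, a sodium-coupled carrier of lactate and short-chain fatty acids, had 5.21, 7.28 and 5.13 in CKO, against 5.62, 6.33 and 4.95 in Control. CKO array E was the highest for both. Slc29a1 was below background on CKO array F and Control array C, and Slc5a8 on Control array C, where signals are only bounds. Slc15a4, a lysosomal carrier of peptides and histidine, had 7.68, 8.37 and 8.06 in CKO, against 8.23, 7.83 and 7.84 in Control and differed by 0.069 (SE 0.23). Slc7a6os, which is named for its place opposite Slc7a6 and is no carrier, had 5.88, 6.07 and 6.09 in CKO, against 6.63, 6.27 and 6.08 in Control.

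Just inside the detection rule, each above background on 3 arrays, were Slc6a19 at 5.28, 4.92 and 5.64 in CKO, against 5.32, 4.73 and 4.69 in Control and Slc22a13 at 5.12, 5.24 and 4.90 in CKO, against 5.33, 5.0 and 5.10 in Control. Just outside, above background on 2 arrays, were Slc4a4 at 6.03, 4.85 and 4.97 in CKO, against 5.10, 5.51 and 5.10 in Control, Slc36a1 at 4.62, 4.73 and 4.79 in CKO, against 4.78, 5.23 and 6.29 in Control and Slc6a15 at 4.54, 4.49 and 4.60 in CKO, against 5.05, 5.65 and 6.06 in Control. Slc6a19 and Slc22a13 were taken from the dimmest of the 6 members above background on 3 arrays. Slc4a4, Slc36a1 and Slc6a15 were the brightest of the 11 symbols above background on 2. Slc36a1, Slc6a15 and Slc4a4 each had at least 1 array above all arrays of Slc6a19 and Slc22a13, which largely follows from that choice.

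Single arrays stood apart for solute carriers in larger shares than for all genes. At least 1 array lay more than 2-fold beyond every other array for 19 members (14%), where 7.98% of all genes had such an array. For 10 members (7.35%) it was CKO array E above the rest, where 2.28% of all genes were so, and for 4 (2.94%) E below the rest, where 2.22% were. Control array C lay below the rest for 5 members (3.68%, where 1.01% of all genes did), Control array A below for 1 (0.735%, where 0.04% did) and CKO array D below for 1 (0.735%, where 1.01% did). D, F, A, B or C above the rest was seen for 0 members each, where 0.648%, 0.024%, 0.144%, 0.04% and 0.96% of all genes were so, and F or B below the rest for 0, where 0.16% and 0% were. The SD over 6 arrays was above 1 for 11 members (8.09%) and for 460 of all genes (3.68%). Without E, 12 members (8.82%) had an array beyond the rest, where 5.91% of all genes did, and 6 (4.41%) had an SD above 1, where 2.26% did. These shares are a description of the arrays with no test.

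**Figure D4:**
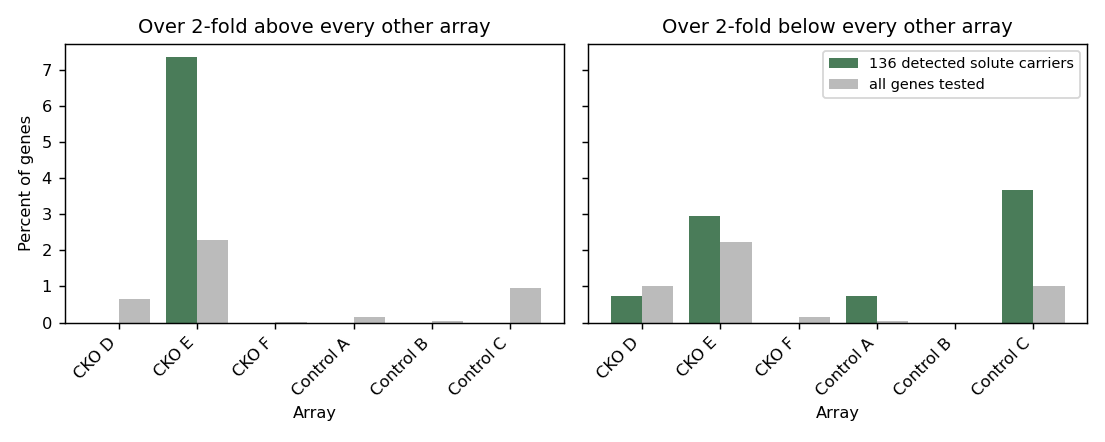
Percent of the 136 detected solute carriers (green) and of the 12499 genes tested (grey) for which the array on the horizontal axis lay more than 2-fold above (left panel) or below (right panel) every other array, CKO arrays left of Control arrays. The green bar is tallest for CKO array E above the rest (7.35%), followed by Control array C below the rest (3.68%).

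The widest gap belonged to Slc26a6 (PAT1), an apical exchanger of chloride for bicarbonate, formate or oxalate. It had 9.16, 11.49 and 9.18 on CKO arrays D, E and F, against 9.65, 8.25 and 4.99 on Control arrays A, B and C. Control array C was below background, where a signal is only a bound, and was 3.26 below the next array as measured, while CKO array E was 1.84 above the next. The mean difference, which rests in part on that bound, was 2.31 (SE 1.23, unadjusted p 0.106, adjusted p 0.974), with a 95% confidence interval of -0.64 to 5.26, and it ran from 0.99 to 3.31 as 1 array was left out. It rests on 1 probe.

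Slc39a8 (ZIP8), an importer of zinc, manganese and iron, had 5.54, 10.78 and 7.76 in CKO, against 7.76, 5.94 and 4.75 in Control. CKO array E lay 3.02 above the next array, and CKO array F and Control array A were almost equal. The other probe of Slc39a8 was above background on E alone. Slc46a2, a relative of the folate transporter that is best known from the thymus, had 5.11, 9.54 and 5.06 in CKO, against 7.16, 5.29 and 4.43 in Control, with E 2.38 above the next array. Without E its difference of 0.94 (SE 1.32) became -0.55. Slc5a9 (SGLT4), a sodium-coupled mannose and glucose carrier, had 6.61, 8.77 and 6.70 in CKO, against 7.25, 6.16 and 5.0 in Control, with E 1.52 above the next. Its other probe was likewise highest on E and lowest on Control array C. On the brightest probes of Slc39a8, Slc46a2 and Slc5a9, Control array C was below background, so that their differences rest in part on a bound.

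Slc16a6 (MCT7), a monocarboxylate carrier that exports ketone bodies from zebrafish liver, had 8.28, 10.60 and 7.80 in CKO, against 7.76, 7.77 and 8.34 in Control. E lay 2.26 above the next array, and all 3 detected probes of the gene were highest on E. Slc45a4, a proton-coupled carrier first described for sugars, had 7.64, 10.12 and 8.03 in CKO, against 8.30, 7.89 and 7.23 in Control, with E 1.81 above the next. E was also the highest array, by just over 1 unit, for Slc1a5, Slc30a5, Slc29a1 and Slc19a1 (the reduced folate carrier, at 6.10, 7.36 and 5.98 in CKO, against 6.23, 6.11 and 5.98 in Control). Slc19a1, Slc22a4 and Slc35a1 were named after their values were seen.

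In the opposite direction, Slc5a5 (NIS), the sodium-iodide symporter, had 10.53, 6.15 and 9.51 in CKO, against 8.25, 9.77 and 11.14 in Control. E lay 2.10 below the next array, and another probe of Slc5a5 was also lowest on E and highest on Control array C. Without E its difference of -0.99 (SE 1.22) became 0.30. Slc15a2 (PEPT2), a proton-coupled carrier of di- and tripeptides, had 11.62, 8.45 and 11.67 in CKO, against 10.01, 11.39 and 10.74 in Control, with E 1.56 below the next. Its other detected probes had 11.01, 9.03 and 10.30 in CKO, against 9.03, 9.66 and 9.0 in Control and 9.53, 7.40 and 9.02 in CKO, against 7.74, 8.55 and 7.69 in Control, in which E was again the lowest CKO array, close to Control arrays A and C. The difference of Slc15a2 was -0.13 on its brightest probe and 0.88 and 0.66 on the others.

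Control array C was the low one for Slc28a3 (CNT3), a sodium-coupled nucleoside transporter, which had 7.84, 8.06 and 7.55 in CKO, against 8.51, 7.29 and 4.79 in Control. C lay 2.50 below the next array as measured and was below background, so that this gap and the difference of 0.95 (SE 0.87) rest in part on a bound. Without C the difference became -0.09. The other detected probe of Slc28a3 differed by -0.15. C was also more than 2-fold below the rest for Slc1a1, Slc26a6, Slc5a9 and Slc22a4 (OCTN1, the ergothioneine carrier, at 7.32, 8.74 and 7.58 in CKO, against 8.40, 7.42 and 6.05 in Control). Of these, Slc26a6 and Slc5a9 were below background on C. Slc7a11 (xCT), the cystine-glutamate exchanger, had 7.52, 7.61 and 8.53 in CKO, against 6.13, 8.43 and 9.46 in Control, with Control array A 1.39 below the next. Slc35a1, the CMP-sialic acid carrier, was low on CKO array D, at 5.29, 6.72 and 7.0 in CKO, against 6.65, 6.63 and 6.95 in Control.

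**Figure D5:**
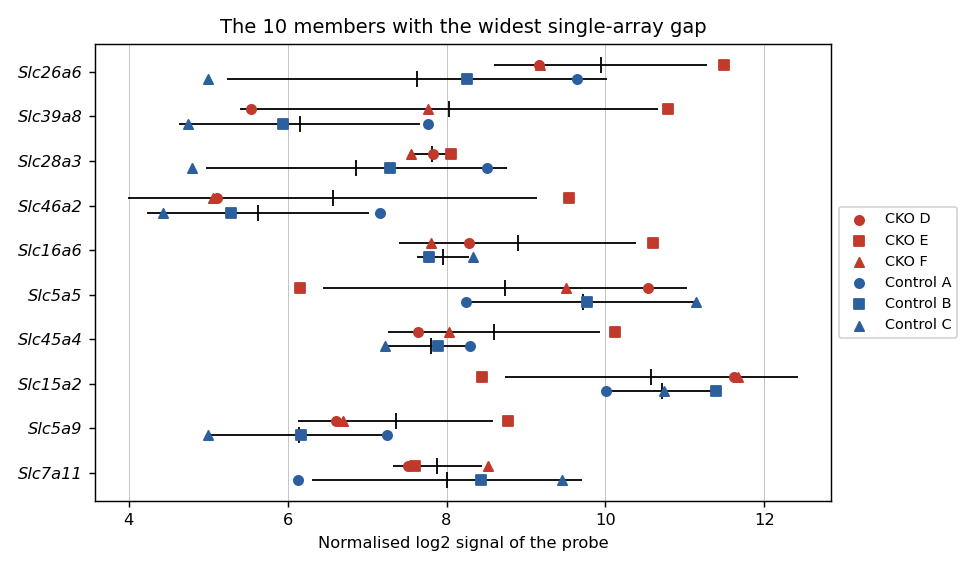
Normalised log2 signal of the 10 members with the widest gap between 1 array and the nearest of the other 5, CKO arrays D, E and F in red above Control arrays A, B and C in blue, with a tick at each group mean and a line for its SD (n = 3 each). CKO array E (red square) sits far right for Slc39a8, Slc46a2, Slc16a6, Slc45a4 and Slc5a9 and far left for Slc5a5 and Slc15a2, and Control array C (blue triangle) far left for Slc26a6 and Slc28a3.

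The 250 bases before the starts of 5 of these members are shown, since they include the widest gaps upward and downward on E, with the same capitals as above.
Slc26a6, chr9:108853793-108854042, plus strand: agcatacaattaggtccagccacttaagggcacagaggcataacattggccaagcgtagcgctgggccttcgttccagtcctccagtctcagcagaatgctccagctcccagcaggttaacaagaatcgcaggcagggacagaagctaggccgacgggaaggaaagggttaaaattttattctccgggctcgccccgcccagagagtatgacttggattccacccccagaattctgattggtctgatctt
Slc39a8 start 1, chr3:135825029-135825278, plus strand: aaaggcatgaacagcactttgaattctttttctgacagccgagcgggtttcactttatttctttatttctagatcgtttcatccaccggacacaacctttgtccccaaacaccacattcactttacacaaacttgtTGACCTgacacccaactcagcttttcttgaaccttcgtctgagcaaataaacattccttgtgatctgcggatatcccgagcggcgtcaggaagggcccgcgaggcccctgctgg
Slc39a8 start 2, chr3:135825407-135825656, plus strand: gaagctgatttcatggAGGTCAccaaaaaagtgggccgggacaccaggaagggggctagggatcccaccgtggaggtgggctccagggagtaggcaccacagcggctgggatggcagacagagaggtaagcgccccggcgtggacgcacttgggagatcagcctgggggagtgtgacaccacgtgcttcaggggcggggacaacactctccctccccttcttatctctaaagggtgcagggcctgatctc
Slc46a2, chr4:59915057-59915306, minus strand: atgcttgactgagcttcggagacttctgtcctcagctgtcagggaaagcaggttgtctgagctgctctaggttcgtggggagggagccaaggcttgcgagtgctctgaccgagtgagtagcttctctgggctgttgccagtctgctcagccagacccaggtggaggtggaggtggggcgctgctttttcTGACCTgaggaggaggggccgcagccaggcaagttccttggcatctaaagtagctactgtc
Slc5a5, chr8:70892758-70893007, minus strand: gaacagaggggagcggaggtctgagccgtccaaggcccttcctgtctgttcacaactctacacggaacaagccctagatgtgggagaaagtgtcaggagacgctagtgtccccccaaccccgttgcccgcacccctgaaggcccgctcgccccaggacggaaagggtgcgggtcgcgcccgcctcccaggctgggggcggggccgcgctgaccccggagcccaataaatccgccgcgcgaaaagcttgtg
Slc15a2, chr16:36784963-36785212, minus strand: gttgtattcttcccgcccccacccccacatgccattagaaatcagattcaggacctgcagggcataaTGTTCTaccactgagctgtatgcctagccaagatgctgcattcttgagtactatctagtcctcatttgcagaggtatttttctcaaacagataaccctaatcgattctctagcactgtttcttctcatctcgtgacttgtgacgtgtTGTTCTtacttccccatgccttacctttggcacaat
AGGTCA or its reverse complement TGACCT was found before both starts of Slc39a8, at -114 and -234, and before Slc46a2, at -61. AGAACA or its reverse complement TGTTCT was found at -183 and -36 of Slc15a2. No match was found for Slc26a6 or Slc5a5. AGGTCA occurred in 14% of all promoters and 13.7% of those of members, and AGAACA in 16.1% and 11.6%. The motifs do not overlap one another.

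Markers of other cells moved over the arrays as well. Of 10 glandular epithelium markers 7 were measured, and their mean level was 6.68, 8.03 and 6.80 in CKO, against 7.25, 7.23 and 6.39 in Control, highest on E and lowest on C. For 15 members (11%), where 7.73% of all genes were so, E was the highest array and C the lowest, among them Slc22a5, Slc26a6, Slc39a8, Slc46a2 and Slc5a9. Those named were picked for a small p or a wide gap of 1 array, a choice that favours such an order. The gland regulator Foxa2 was not among the genes tested. Of the 7, E was the highest array for Prss29, Sox9 and Ttr and C the lowest for Prss29 and Sox9. Prss29 was below background on D, F and C, so that its lowest array is not settled. Ttr was above background on 1 CKO array and 2 Control arrays. The mean level of these markers therefore rests in part on bounds. Prss29, an implantation serine protease of the glands, had 4.59, 10.53 and 4.69 in CKO, against 8.27, 5.23 and 4.53 in Control, and the glandular secretory inhibitor Spink3 had 8.19, 11.41 and 8.01 in CKO, against 12.08, 10.33 and 8.03 in Control. Sox9, a transcription factor of the glands, had 10.43, 10.78 and 10.21 in CKO, against 9.49, 9.71 and 7.47 in Control, with groups that did not overlap. Lif, the cytokine of implantation, had 5.30, 5.33 and 5.59 in CKO, against 4.56, 5.02 and 4.79 in Control. It was below background on all Control arrays and met the detection rule only through the CKO arrays. The lack of overlap for Lif therefore largely follows from that rule. Ttr, the thyroid hormone carrier transthyretin, had 5.03, 6.52 and 4.82 in CKO, against 4.51, 5.42 and 5.35 in Control. Cxcl15 had 6.78, 6.90 and 7.70 in CKO, against 6.93, 9.15 and 7.28 in Control, highest on Control array B. Aldh1a1, an enzyme of retinoic acid synthesis, had 6.42, 4.74 and 6.55 in CKO, against 4.93, 5.74 and 7.31 in Control. Its highest array was Control array C. It was below background on CKO array E and Control array A, so that its lowest array is not settled. Endothelial markers (7 of 9 measured) had a mean level of 5.76, 6.61 and 4.77 in CKO, against 5.55, 5.21 and 5.41 in Control. Stromal markers (7 of 10 measured) had one of 7.82, 7.35 and 5.93 in CKO, against 6.44, 6.49 and 6.67 in Control, and of these lists Pecam1, Tie1 and Pdgfra were not among the genes tested. The 9 of 10 general epithelial markers measured had a mean level of 11.87, 11.38 and 11.70 in CKO, against 11.87, 11.78 and 11.73 in Control. The part of these markers in the values above was not tested.

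Of the 136 members, 99 rested on 1 detected probe and 37 had several. For 27 of the 37 all detected probes had a difference of the same sign, for 19 they had the same highest array, and for 14 the same lowest array.

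Genes that work with solute carriers were read from 5 lists. Of 13 sodium pump and FXYD subunits, which make and tune the sodium gradient, 8 were measured, 3 with a positive and 5 with a negative difference. The 2 with the smallest p were Fxyd5, at 6.40, 7.03 and 6.46 in CKO, against 5.21, 6.52 and 5.94 in Control, and the pump subunit Atp1b3, at 12.31, 12.49 and 12.19 in CKO, against 12.44, 12.47 and 12.82 in Control. Of 8 accessory proteins of carriers 4 were measured, 3 positive and 1 negative. Arl6ip1 and Nptn, a partner of monocarboxylate carriers, differed by 0.11 (SE 0.19) and 0.074 (SE 0.16). Of 13 organic anion transporters (Slco) 3 were measured, 1 positive and 2 negative. Slco3a1 differed by -0.98 (SE 0.62) and Slco2b1 by 0.24 (SE 0.22), with overlap in both.

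Of 10 ATP-driven ABC transporters of the plasma membrane 4 were measured, 1 positive and 3 negative. Abcc5, which exports cyclic nucleotides, differed by -0.86 (SE 0.41), and Abcc3, which exports conjugated organic anions, by 1.43 (SE 0.71). All 8 listed kinases and sensors of carriers were measured, 1 positive and 7 negative. Txnip, which brings GLUT1 in from the plasma membrane, had 12.02, 11.50 and 12.15 in CKO, against 12.43, 12.92 and 13.11 in Control, a difference of -0.93 (SE 0.26, unadjusted p 0.0105, adjusted p 0.974). No CKO array reached the Control range. Sgk1, a kinase that keeps sodium channels and exchangers at the membrane, had 10.29, 10.29 and 10.93 in CKO, against 9.12, 11.97 and 13.94 in Control, with Control arrays spread far wider than the CKO arrays and a difference of -1.17 (SE 1.11). Of the genes in the 5 lists 0 passed the adjusted p.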

How the data were processed

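Total RNA of luminal uterine epithelium was measured on 6 arrays of 1 Illumina chip (3 CKO, 3 Control, grouped by the labels). Per the file headers, the deposited tables hold, probe by probe for 45281 probes, the mean bead intensity (linear), the detection p-value and how many beads were read (median 39 to 42 an array). Their values are raw. The authors also deposited a processed version of the intensity values, which served as an alternative. What software made either was not given in the sources used here.

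Raw values were processed with neqc (limma 3.58.1, R 4.3.3), which takes the negative controls from the detection p-values, adds an offset (16 here), makes the quantiles of the arrays equal and takes log2. The offset shrinks differences of dim probes. The filter left 17291 probes detected on 3 or more of the 6 arrays, and the brightest stood for each symbol of the files, which gave 12499 genes. Of the members, 125 were matched to RefSeq by accession and 11 by symbol, and 1 had been renamed. The groups were compared in limma (lmFit, eBayes, two-sided tests), and p-values were adjusted by Benjamini-Hochberg over the 12499 genes, with 0.05 as the threshold. The fit was tested on simulated data. Alternatives changed background correction, normalisation, filter, probe choice, variance model, array weights or the arrays used, and the closing section gives their effect. The number of arrays limits the precision.

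The members, substrate classes, marker lists and partner lists were chosen with earlier results of these data known. Named members are the 15 brightest, up to 8 in each direction with the smallest p among those whose groups do not overlap, the 10 with the widest gap of 1 array, in each class the brightest 3 and the one with the smallest p, a set with known roles, and those next to the detection rule. No gene list was tested as a set. Carriers of the list with known roles that are not described were not analysed here, and some genes that the rule names are not reported here.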

Additional observations from a re-analysis of the deposited data

How the results depend on the processing

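No member passed the adjusted p under any of 17 alternatives to the processing, fit or set of arrays, and 36 of 72 named members kept the sign of their difference under all of them, while 36 changed it under at least 1. No paired analysis was possible because the groups share no replicate numbers. The count of all genes higher in CKO, 2 in the fit reported, was 1 with normexp and an offset of 50, no background correction, median scaling, cyclic loess or the deposited values, 0 with no filter or a detection p under 0.01 on all 6 arrays, 5 with array weights, and 0 to 1 with an array left out, and 0 genes were lower in each. Members with an unadjusted p under 0.05 numbered 23 (16.9%) with array weights, where 12.7% of all genes did. Median differences of classes moved with array weights to -0.049 (sugars), 0.0039 (amino acids), -0.17 (anions), -0.11 (cation-chloride) and -0.0015 (zinc), with the mean of probes to 0.022 (amino acids), with normexp without controls and an offset of 50 to 0.051 (zinc) and -0.27 (fatty acids), with no background correction to 0.048 (zinc) and -0.26 (fatty acids), with median scaling to 0.043 (zinc), -0.035 (nucleotide sugars) and -0.42 (fatty acids) and with a detection p under 0.01 on all 6 arrays to 0.13 (zinc) and 0.18 (organic ions). With 1 array left out they ran from -0.016 to 0.081 (amino acids), -0.040 to 0.27 (carboxylates), -0.12 to 0.080 (cation-chloride), 0.053 to 0.15 (zinc), 0.22 to 0.42 (iron and copper), -0.25 to 0.0084 (vitamins and choline) and -0.43 to -0.29 (fatty acids). Counts of members beyond every other array became 0 below on A, 3 below on C, 0 below on D, 6 above on E and 2 below on E with no background correction, 1 above on C and 2 below on D with median scaling and 1 below on F with the deposited values. Without CKO array E (chosen after seeing the data), 12 members had an array beyond the rest, 6 an SD above 1 and 30 no overlap. Differences that changed sign were, with normexp without controls and an offset of 50, 0.031 for Slc39a14, with no background correction, 0.033 for Slc39a14, with median scaling, -0.017 for Slc15a4, -0.082 for Slc2a1, -0.057 for Slc35c1 and -0.050 for Slc40a1, with the mean of probes, 0.28 for Slc12a3, 0.050 for Slc12a9, 0.47 for Slc15a2 and -0.061 for Slc38a2 and with array weights, -0.11 for Slc12a2, 0.084 for Slc12a3, 0.12 for Slc14a1, 0.27 for Slc15a2, -0.14 for Slc1a5, 0.45 for Slc24a4, -0.15 for Slc24a6, -0.025 for Slc29a1, 0.16 for Slc29a3, -0.092 for Slc2a1, -0.092 for Slc2a6, -0.0015 for Slc30a5, 0.83 for Slc39a14, -0.70 for Slc5a8, 0.085 for Slc7a11 and -0.17 for Slc8a1. With 1 array left out, differences ran from -0.13 to 0.12 for Slc12a3, -0.46 to 0.74 for Slc1a5, -0.16 to 0.15 for Slc2a1, -0.17 to 0.49 for Slc2a6, -0.42 to 0.85 for Slc40a1, -0.27 to 0.12 for Slc44a4, -0.25 to 0.092 for Slc6a6, -0.68 to 0.93 for Slc15a2, -1.06 to 0.60 for Slc7a11, -0.49 to 0.58 for Slc8a1, -0.14 to 0.12 for Slc9a3r1, -0.30 to 0.31 for Slc9a3r2, -0.033 to 0.64 for Slc1a1, -0.23 to 0.086 for Slc22a18 and -1.03 to 0.24 for Slc24a4, and from -0.090 to 1.76 for Slc28a3, -0.21 to 0.27 for Slc29a3, -0.40 to 0.45 for Slc39a14, -0.46 to 0.61 for Slc5a8, -0.036 to 0.63 for Slc6a8, -0.18 to 0.15 for Slc26a4, -0.24 to 0.0095 for Slc27a4, -0.13 to 0.46 for Slc12a2, -0.095 to 0.24 for Slc15a4, -0.11 to 0.28 for Slc24a6, -0.17 to 0.58 for Slc30a5, -0.081 to 0.47 for Slc39a6, -0.35 to 0.012 for Slc44a2, -0.55 to 1.70 for Slc46a2, -0.34 to 0.14 for Slc4a2 and -1.89 to 0.30 for Slc5a5. The cause of these changes was not tested, apart from the array left out. Class medians of sodium-proton exchange and carboxylates have no value with a detection p under 0.01 on all 6 arrays, since too few members were left. Dim probes have signals near background and so compressed differences.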

Other observations

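RefSeq (GRCm38.p6) places Slc22a5, Slc22a21 and Slc22a4 next to one another in this order among protein-coding genes. Slc22a21 (OCTN3), a carnitine carrier, was not detected by the rule: it had 5.38, 5.72 and 4.64 in CKO, against 5.08, 4.49 and 4.55 in Control, and was above background on 2 CKO arrays and 0 Control arrays. The difference of Slc22a4 was 0.59, with groups that overlapped, against 1.29 for Slc22a5, with groups that did not. CKO array E was the highest array and Control array C the lowest for both Slc22a5 and Slc22a4, and no test compared these genes.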
